A study of Mus musculus with 6 samples.

Results

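The high mobility group (HMG) chromatin genes were examined in astrocytes sorted from the striatum of young and adult mice. The 9 genes were listed by name from the 3 classical HMG families, and all 9 were rows of the count table of 32285 genes. They were *Hmga1* and *Hmga2*, *Hmgb1*, *Hmgb2* and *Hmgb3*, and *Hmgn1*, *Hmgn2*, *Hmgn3* and *Hmgn5*. The cells came from the striatum of wild type C57BL/6 mice, all male, at postnatal day 3 (P3) or at 3 months (3m), with 3 libraries at each age. No group carried a transgene or received a treatment. Tissue of several mice was pooled in each preparation, and astrocytes were enriched by magnetic sorting (MACS) for the surface antigen ACSA2. The libraries were droplet-based single-cell RNA-Seq libraries read from the 3′ end, in which a unique molecular identifier (UMI) counts a captured transcript once.

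HMG proteins are small, abundant chromatin proteins that bind DNA or nucleosomes without recognising a long sequence. HMGA proteins carry AT-hooks, which bind the minor groove of AT-rich DNA, and are best known from embryonic and tumour cells. HMGB proteins carry HMG boxes that bend DNA, and HMGB1 released from cells also acts as an extracellular signal. HMGN proteins bind the nucleosome core itself and counteract the linker histone H1, the protein that closes and compacts the nucleosome. In neural stem cells *Hmga2*, *Hmgb2* and the HMGN genes have been studied as genes of the young, neurogenic or gliogenic progenitor.

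The cells used below were the 14373 that the authors annotated of 16690 barcodes, of which 9992 belonged to their astroglial clusters, 8874 at P3 and 1118 at 3m. The study proposes that some astroglial sub-clusters may be contaminating astrocytes of adjacent brain regions, and these were kept in the sums. Astroglial UMIs ranged from 22327104 to 30617140 per P3 library and from 1157485 to 1843998 per 3m library, so that rare transcripts were measured less precisely in adult cells. The summed level of the 6 astrocyte markers (*Aldh1l1*, *Slc1a3*, *Slc1a2*, *Aqp4*, *Gja1* and *Sox9*) ranged from 4194 to 5257 UMIs per 1000000 UMIs (CPM) at P3 and from 9819 to 10341 CPM at 3m, with all 6 markers detected at both ages. Markers of oligodendrocytes summed to 708 to 1864 CPM in 3m astroglia, with 6 of 6 detected, and to 5.45 to 6.40 CPM in P3 astroglia. Median mitochondrial shares per library were 5.97 to 8.18% in 3m astroglia and 1.27 to 2.47% in P3 astroglia. In all, 37 barcode sequences occurred in more than 1 library, in 74 cells.

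In the mouse genome (GRCm38, GENCODE M21) the members lie on 8 chromosomes, and all are annotated as protein coding. *Hmgb2* is at chr8:57511907-57515999 on the plus strand, *Hmgb3* at chrX:71555918-71560676 on the plus strand and *Hmgb1* at chr5:149046702-149184489 on the minus strand. *Hmgn2* is at chr4:133964738-133968650, *Hmgn1* at chr16:96120618-96127729, *Hmgn3* at chr9:83109948-83146685 and *Hmgn5* at chrX:109004534-109013404, all on the minus strand. *Hmga1* is at chr17:27556497-27563674 on the plus strand and *Hmga2* at chr10:120361275-120476469 on the minus strand. Several members have retrocopies, that is, processed copies of their mRNA elsewhere in the genome, so the last 400 bases of each protein-coding transcript were compared with all annotated transcripts. At a minimum of 95% identity over 90 bases, *Hmgb1* matched transcripts of 71 other genes, *Hmgn2* of 12, *Hmgb2* of 5, and *Hmga1* and *Hmgb3* of 1 each, whereas *Hmga2*, *Hmgn1*, *Hmgn3* and *Hmgn5* matched none. The only matched genes with a row in the count table were *Hmga1b*, with 85 astroglial UMIs against 285 for *Hmga1*, *Gm10282*, with 503 against 27168 for *Hmgn2*, and *Gm7125*, with 0. The levels of these 5 genes are therefore uncertain. Annotated genes on the same strand overlap *Hmgb1* (2 genes), *Hmga2* (1) and *Hmgn5* (1).

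Promoter sequences (250 bases before and 50 after a transcription start, RefSeq, GRCm38.p6) were found for 8 of the 9 members, 10 promoters in all, and *Hmgn3* had no entry. The promoters of *Hmgb2*, *Hmgb3* and *Hmgn2* are shown because these genes were called higher in cycling cells of each of 3 cell types (below). Capitals mark motifs known from promoters of genes expressed late in the cell cycle. The first is the CCAAT box, which reads ATTGG when it lies on the opposite strand. The second is TTTGAA, the core of the cell cycle homology region, which reads TTCAAA there. Both strands were searched, and matches to the 2 motifs did not overlap in these promoters.
*Hmgb2*, chr8:57511593-57511892, plus strand: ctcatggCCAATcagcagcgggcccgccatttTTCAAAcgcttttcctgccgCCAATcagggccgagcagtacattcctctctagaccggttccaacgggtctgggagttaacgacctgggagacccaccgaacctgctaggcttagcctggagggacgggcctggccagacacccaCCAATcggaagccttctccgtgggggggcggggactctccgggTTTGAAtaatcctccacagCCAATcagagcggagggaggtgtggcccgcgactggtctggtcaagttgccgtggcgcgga
*Hmgb3*, chrX:71555667-71555966, plus strand: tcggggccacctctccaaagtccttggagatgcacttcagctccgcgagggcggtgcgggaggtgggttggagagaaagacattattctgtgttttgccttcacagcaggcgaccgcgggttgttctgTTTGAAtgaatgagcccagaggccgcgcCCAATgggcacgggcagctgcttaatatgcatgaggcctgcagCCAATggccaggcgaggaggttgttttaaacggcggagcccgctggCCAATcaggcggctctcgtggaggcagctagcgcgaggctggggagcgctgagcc
*Hmgn2*, chr4:133967942-133968241, minus strand: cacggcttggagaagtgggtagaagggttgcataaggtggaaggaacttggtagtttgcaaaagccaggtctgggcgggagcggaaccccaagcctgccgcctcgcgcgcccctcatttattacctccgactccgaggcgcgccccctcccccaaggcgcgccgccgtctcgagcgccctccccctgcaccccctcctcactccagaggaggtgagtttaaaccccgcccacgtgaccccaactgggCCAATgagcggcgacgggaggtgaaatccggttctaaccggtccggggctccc
The *Hmgb2* promoter held 4 CCAAT and 2 TTTGAA matches, that of *Hmgb3* 3 and 1, and that of *Hmgn2* 1 and 0. Of the promoters not shown, 1 of *Hmgb1* held 3 and 0, and those of *Hmgn1* and *Hmgn5* held 2 and 0 each. CCAAT was present in 6 of the 10 member promoters, belonging to 6 genes, and in 37.4% of all 32851 promoters in the table. TTTGAA was present in 2 member promoters and in 17.9% of all. At least 4 CCAAT matches were found in 1.06% of all promoters and at least 2 TTTGAA matches in 2.31%. Both *Hmga1* promoters, the *Hmga2* promoter and 1 of the 2 *Hmgb1* promoters held neither motif. The motifs were chosen with the behaviour of these genes known, and a match of letters is no evidence that a factor binds there.

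The first comparison asked how the genes differed between immature and adult astrocytes, with UMIs summed per library over all astroglial cells. All 3 HMGB genes and *Hmgn1*, *Hmgn2* and *Hmgn5* were lower at 3m, from 2.66-fold for *Hmgn1* to 13.2-fold for *Hmgb2*, whereas *Hmgn3* was at a similar level at both ages. Calls required 2-fold or more and an adjusted p not above 0.05 in the quasi-likelihood test of edgeR. Of the 8 members with enough UMIs to be tested, 6 were called lower and 0 higher, where 16.3% of the 13530 genes tested were called lower and 15.8% higher. The median log2 fold change (3m over P3) was -1.51 over the members tested and -0.04 over all genes tested. The sums include 1312 cycling cells at P3 and 0 at 3m, so in this comparison the share of dividing cells and the level within a cell cannot be told apart.

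Of the HMGB genes, *Hmgb2*, a DNA-bending protein abundant in dividing cells, differed most. It stood at 973, 825 and 730 CPM in P3 replicates 1, 2 and 3, and at 67.4, 50.4 and 52.3 CPM in 3m replicates 1, 2 and 3. The lowest P3 library was thus far above the highest 3m library, and the log2 fold change was -3.72 (SE 0.22, n = 3 against 3, adjusted p = 3.83e-08, edgeR). *Hmgb3*, which is known from haematopoietic and other stem cells, was measured at 206, 197 and 279 CPM at P3 and at 34.6, 35.3 and 41.4 CPM at 3m. Its groups did not overlap either, with a log2 fold change of -2.41 (SE 0.19, adjusted p = 4.60e-07, edgeR). *Hmgb1*, the most widely expressed of the family, was at 1134, 1197 and 1469 CPM at P3 and at 372, 450 and 340 CPM at 3m. It fell by 1.51 on the log2 scale (SE 0.21, adjusted p = 5.13e-05, edgeR) without overlap, but adult astroglia still contained 1761 of its UMIs, against 248 of *Hmgb2* and 166 of *Hmgb3*.

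The HMGN genes, which code for nucleosome-binding proteins, were divided. *Hmgn2* was at 316, 422 and 278 CPM in the P3 libraries and at 57.0, 96.0 and 78.8 CPM in the 3m libraries, with a log2 fold change of -1.94 (SE 0.25, adjusted p = 3.12e-05, edgeR). *Hmgn1* was at 566, 700.4 and 666 CPM at P3 and at 156, 264 and 215 CPM at 3m, a log2 fold change of -1.41 (SE 0.23, adjusted p = 2.04e-04, edgeR). *Hmgn5*, an X-linked member with a long acidic tail, was lower in every 3m library (15.6 to 28.2 CPM) than in every P3 library (58.9 to 75.3 CPM), with a log2 fold change of -1.50 (SE 0.22, adjusted p = 9.77e-05, edgeR). All 6 genes that were called had groups that did not overlap, where 37.7% of all genes tested were lower at 3m without overlap. *Hmgn3* was at 231, 261 and 255 CPM at P3 and at 334, 163 and 192 CPM at 3m. The 3m values lay on either side of the P3 values, and the log2 fold change was 0.05 (95% interval -0.45 to 0.55, adjusted p = 0.872, edgeR), an interval that reaches 1.46-fold upwards. The highest adult value came from 3m replicate 1, and without that library the log2 fold change was -0.34 (adjusted p = 0.179, edgeR).

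The HMGA genes were hardly detected. *Hmga1* had 260 UMIs in P3 astroglia and 25 in 3m astroglia, or 2.46, 4.54 and 2.69 CPM and 1.73, 7.59 and 6.11 CPM in replicates 1, 2 and 3. The groups overlapped, and the log2 fold change was 0.92 (95% interval -0.12 to 1.96, adjusted p = 0.131, edgeR). Without P3 replicate 2 it was 1.36 and passed the threshold (adjusted p = 0.0334, edgeR), so this value depended on 1 library. When UMIs of the copy *Hmga1b* were added, an alternative chosen after seeing the data, it was 0.63 (adjusted p = 0.269, edgeR). *Hmga2*, the member most often described in fetal neural stem cells, had 37 UMIs in 8874 P3 cells and 2 UMIs in 1118 adult cells, too few for a test. Its ratio of P3 to 3m level was 1.07 with a 95% counting interval from 0.275 to 9.14.

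**Figure D1:**
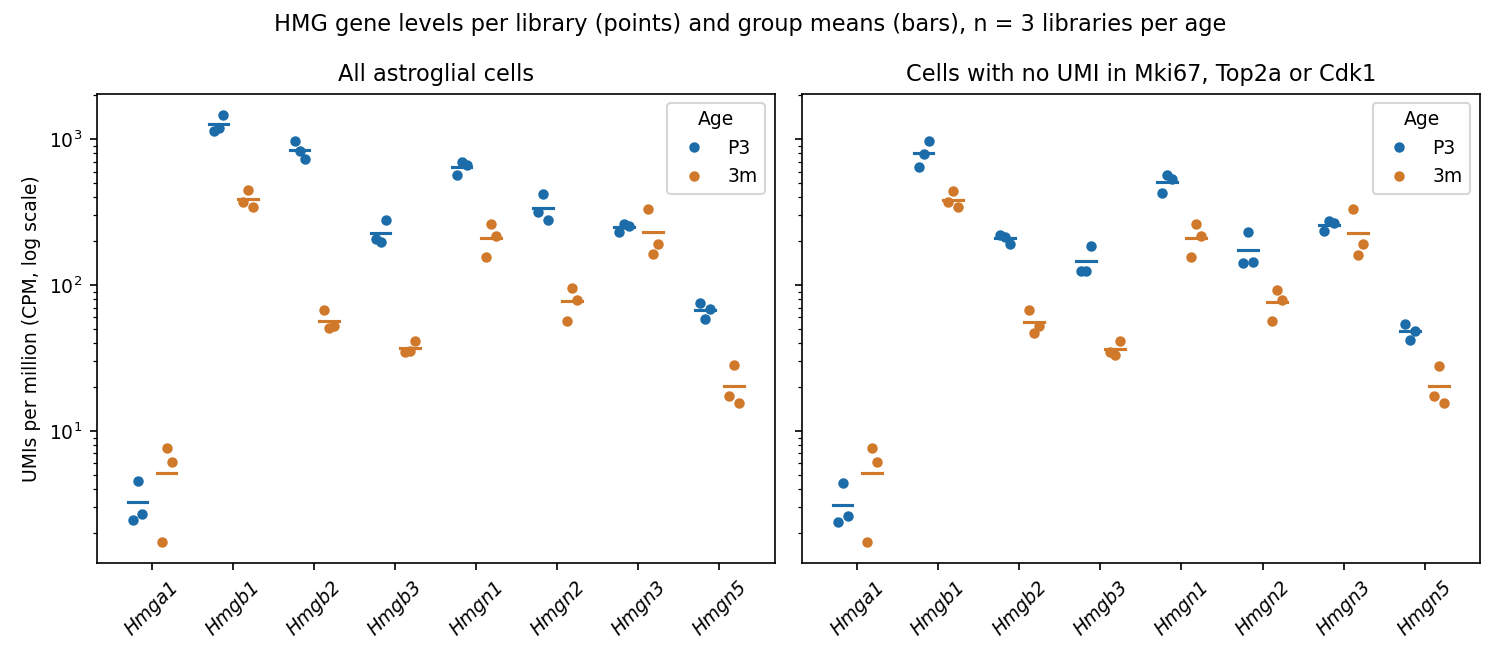
Level of 8 HMG genes (*Hmga2* left out, with 39 UMIs in all) in each library in CPM on a log scale, for all astroglial cells (left) and for those without a UMI in *Mki67*, *Top2a* or *Cdk1* (right). Points are libraries, 3 per age, and bars are group means. *Hmgb2* ranges from 730 to 973 CPM at P3 and from 50.4 to 67.4 CPM at 3m on the left, the P3 and 3m points of 6 genes do not overlap on either side, and those of *Hmgn3* do.

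The same comparison was made over cells with no UMI in *Mki67*, *Top2a* or *Cdk1*, 3 genes of dividing cells, which left 6639 P3 and 1117 3m cells. The age differences were smaller here for each of the 6 genes, and *Hmgn3* again was at a similar level. Of 8 members tested, 3 were called lower and 0 higher, where 12.2% of 12755 genes were called lower and 14.3% higher. *Hmgb3* (146 ± 35 CPM at P3 and 36.4 ± 4.4 CPM at 3m, SD, n = 3) fell by 1.77 on the log2 scale (SE 0.20, adjusted p = 8.56e-06, edgeR). *Hmgb2* was at 222, 213 and 190.5 CPM in the P3 libraries and at 67.4, 46.8 and 52.3 CPM in the 3m libraries. These groups did not overlap, and it fell by 1.71 (SE 0.19, adjusted p = 6.44e-06, edgeR), or 3.27-fold, against 13.2-fold over all cells. *Hmgn1* fell by 1.05 (SE 0.23, adjusted p = 0.00184, edgeR), but by less than 2-fold without P3 replicate 2 or without 3m replicate 1 (log2 fold change -0.90 in each case).

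The remaining 3 genes were below the P3 libraries in every 3m library but differed by less than 2-fold in the scaled fit. As ratios of mean CPM, unscaled, the differences were 2.08-fold for *Hmgb1*, 2.27-fold for *Hmgn2* and 2.38-fold for *Hmgn5*. All 6 genes thus stood apart without overlap, where 36.0% of the genes tested were lower at 3m without overlap. The log2 fold change was -0.84 for *Hmgb1* (adjusted p = 0.00574, edgeR), -0.96 for *Hmgn2* (adjusted p = 0.00683, edgeR) and -0.99 for *Hmgn5* (adjusted p = 0.00227, edgeR). These values lie close to the 2-fold limit, and 5 members were called with DESeq2 or without a filter on low counts and 6 without scaling beyond library totals. *Hmgn3* had a log2 fold change of 0.03 (95% interval -0.47 to 0.52, adjusted p = 0.939, edgeR). *Hmga1* was at 1.00 (adjusted p = 0.106, edgeR), and passed without P3 replicate 2 (1.42, adjusted p = 0.0371, edgeR) or without 3m replicate 1 (1.32, adjusted p = 0.0403, edgeR). A cell without a UMI in the 3 genes can still be dividing, the more so the fewer UMIs it has, and the part of such cells in the P3 values was not tested.

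The share of cells with at least 1 UMI was compared after each astroglial cell had been thinned to 2000 UMIs, which left out 1113 P3 and 212 3m cells. The share for *Hmgb2* was 42.8% ± 2.7 at P3 and 11.0% ± 5.1 at 3m (SD, n = 3), and for *Hmgb3* 29.5% ± 4.6 and 7.28% ± 1.20. *Hmgn1* was found in 65.4% ± 5.5 of P3 cells and 32.3% ± 6.2 of 3m cells, and *Hmgb1* in 76.8% ± 5.8 and 51.9% ± 4.2. In all, 6 of the 9 genes were lower at 3m without overlap of the libraries, each with p = 0.1 in a two-sided exact permutation test, the smallest that 3 against 3 libraries allow. Of the 13530 genes tested in the age comparison, 33.9% were lower in share without overlap. *Hmgn3* was found in 39.8% ± 1.3 of P3 cells and 34.5% ± 8.7 of 3m cells (exact permutation p = 0.4). Without thinning, when deeper P3 cells show more genes, the shares of *Hmgb2* were 73.3% at P3 and 20.6% at 3m. In adult oligodendrocytes of the same libraries the thinned share of *Hmgb2* was 3.45% ± 0.95. The lowest adult astroglial library had 6.91%. For *Hmgb1* and *Hmgn2* the oligodendrocyte shares were 83.7% ± 2.0 and 33.9% ± 7.0, above the adult astroglial means of 51.9% and 15.1%. The part of free RNA in the adult values was not tested. Among cycling P3 cells the share was 93.2% ± 0.5 for *Hmgb2*, 96.8% ± 1.2 for *Hmgb1* and 36.9% ± 1.1 for *Hmgn3*.

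The next comparison asked how the genes differed between cycling cells, with UMIs in at least 2 of *Mki67*, *Top2a* and *Cdk1*, and the other astroglial cells of the same P3 library. Cycling cells numbered 335, 477 and 500 in replicates 1, 2 and 3, or 16.9, 15.4 and 13.2% of astroglial cells. The HMGB genes, *Hmgn2*, *Hmgn5* and the rare *Hmga2* were higher in cycling cells, whereas *Hmgn3* and *Hmga1* were not detectably different. Of 9 members tested, 6 were called higher and 0 lower, where 8.94% of 13306 genes were called higher and 8.06% lower. The 6 include *Hmga2*, which passed the filter on low counts through the cycling cells only, so its call adds no support. The median log2 fold change was 1.47 over the members and -0.03 over all genes tested.

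*Hmgb2* was at 2813, 2266 and 2167 CPM in cycling cells of replicates 1, 2 and 3 and at 267, 263 and 239 CPM in the other cells of the same libraries. The difference was 10.0-fold, a log2 fold change of 3.32 (SE 0.06, adjusted p = 1.11e-13, edgeR with library as a block). *Hmgn2* followed with 705, 847 and 612 CPM against 167, 257 and 164 CPM, a log2 fold change of 1.99 (SE 0.06, adjusted p = 9.69e-12, edgeR). In both genes every cycling value lay above every other value, as it did in 7 of the 9 members, where 18.7% of the genes tested were higher without overlap. *Hmgb1* rose by 1.51 (2325 ± 315 against 876 ± 164 CPM, SD, n = 3, adjusted p = 8.49e-11, edgeR), *Hmgb3* by 1.47 (412 ± 83 against 159 ± 37 CPM, adjusted p = 3.91e-11, edgeR) and *Hmgn5* by 1.26 (113 ± 15 against 50.4 ± 5.8 CPM, adjusted p = 3.01e-10, edgeR), all on the log2 scale. With cells thinned to 2000 UMIs before the state was set, *Hmgn5* was at 0.91 and below the 2-fold limit, while *Hmgb1*, *Hmgb2*, *Hmgb3* and *Hmgn2* kept their calls and *Hmga2* had too few UMIs for a test.

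*Hmgn1* was 1.89-fold higher in cycling cells (log2 fold change 0.92, SE 0.05, adjusted p = 2.65e-09, edgeR), just under the limit. *Hmga2* was counted 24 times in 1312 cycling cells and 13 times in the 7562 others. This gave a log2 fold change of 2.36 (95% interval 1.15 to 3.56, edgeR). The level of *Hmga2* was 1.25 ± 0.06 CPM in cells with all 3 genes, against 0.20 ± 0.12 CPM in cells with none of them. Per library it was at 0.97 to 1.28 CPM in cycling cells and at 0.05 to 0.37 CPM in the others. *Hmga2* thus passed the filter on low counts through the cycling cells only, and its call is no support for a difference. *Hmgn3* stood at 223, 228 and 227 CPM in cycling cells and at 234, 274 and 265 CPM in the others. Every cycling value was slightly below every other value, as in 27.8% of the genes tested, but the log2 fold change was -0.09 (95% interval -0.21 to 0.02, adjusted p = 0.154, edgeR), or 0.865-fold to 1.02-fold. Without scaling beyond library totals it was -0.19 (adjusted p = 0.00889, edgeR), a fall of less than 2-fold. *Hmga1* had a log2 fold change of 0.42 (95% interval -0.04 to 0.89, adjusted p = 0.103, edgeR).

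The levels were also ordered by the number of the 3 genes detected. For *Hmgb2* the mean level was 209 ± 16 CPM in P3 astroglia with 0 of the 3 genes, 572 ± 51 CPM with 1, 1433 ± 72 CPM with 2 and 2712 ± 355 CPM with all 3 (SD, n = 3). *Hmgn2* went from 173 ± 52 through 346 ± 78 and 589 ± 109 to 761 ± 124 CPM. *Hmgn3* stayed between 221 and 259 CPM over the 4 classes. Cells with more UMIs are more likely to show each of the 3 genes, and the part of depth in this series was not tested beyond the thinning above.

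The same split was made in 2 other P3 cell types. In PER_6, a cluster whose 6 mural cell markers summed to 15822 CPM, 5 of 7 members tested were called higher in cycling cells and 0 lower, where 6.47% of 7192 genes were called higher and 1.93% lower. Libraries did not overlap for 6 of the 7, where 11.9% of genes were higher without overlap. *Hmgb2* was at 2339, 1518 and 1879 CPM in the cycling cells of replicates 1, 2 and 3, whereas the other cells stood at 197 CPM in replicate 1 and 212 CPM in replicate 3 and lower in replicate 2, a log2 fold change of 3.40 (SE 0.11, adjusted p = 1.59e-23, edgeR). The other genes called were *Hmgn2* (log2 fold change 2.13), *Hmgb3* (1.54), *Hmgn5* (1.33) and *Hmgb1* (1.26), while *Hmgn1* was at 0.59 (adjusted p = 1.61e-05, edgeR). *Hmgn3* had a log2 fold change of 0.04 (95% interval -0.22 to 0.30, adjusted p = 0.895, edgeR).

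In END_7, a cluster with 4653 CPM of endothelial markers, 3 of 8 members tested were called higher in cycling cells and 0 lower, where 3.93% of 10522 genes were called higher and 0.893% lower. Libraries did not overlap for 6 of the 8, where 9.46% of genes were higher without overlap. The genes called were *Hmgb2* (2.83, SE 0.08), *Hmgn2* (1.77, SE 0.08) and *Hmgb3* (1.32, SE 0.08), all log2 fold changes with adjusted p of at most 3.58e-15 (edgeR). *Hmgn5* (0.86), *Hmgb1* (0.80) and *Hmgn1* (0.64) were between 1- and 2-fold, with the largest adjusted p at 2.92e-08 (edgeR). *Hmgn3* was at 0.03 (95% interval -0.16 to 0.23, adjusted p = 0.847, edgeR). Mural cell markers summed to 1394 to 2824 CPM in cycling and 2453 to 4173 CPM in other END_7 cells. Haemoglobin transcripts, markers of red blood cells, made up 6648 to 13529 CPM in cycling and 14380 to 37842 CPM in other END_7 cells. The part of mural cell and red blood cell RNA in these values was not tested. *Hmgb2*, *Hmgb3* and *Hmgn2* were thus called in each of the 3 cell types and *Hmgn3* in none. The 3 cell types come from the same 3 libraries, and the differences between them were not tested.

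**Figure D2:**
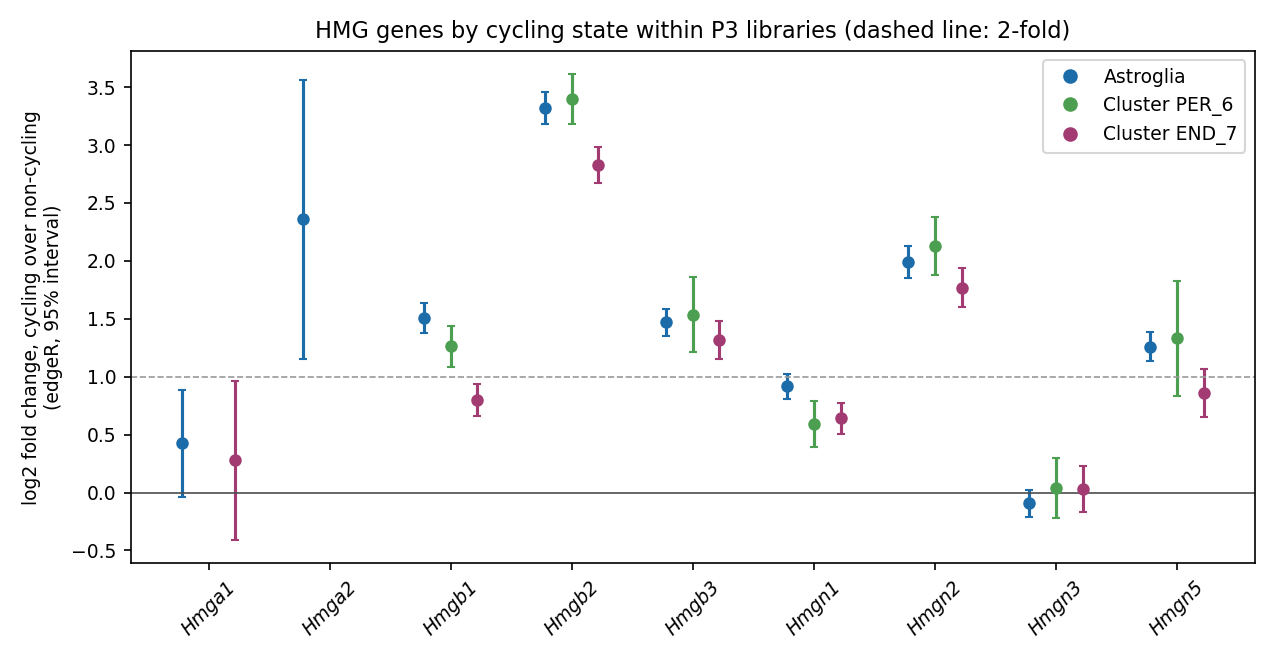
Log2 fold change of each HMG gene in cycling over non-cycling cells of the same P3 libraries, for astroglia and for clusters PER_6 and END_7, with 95% intervals (edgeR, 3 libraries, library as a block). The solid line marks no change and the dashed line 2-fold, and genes with too few UMIs for a test have no point. *Hmgb2* lies highest among the well counted genes at 3.32, 3.40 and 2.83, and *Hmgn3* lies between -0.09 and 0.04.

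The age comparison was also made in microglia, the cells of cluster MIC_16, 124 at P3 and 60 at 3m. *Hmgb2* was lower here too, while the other genes did not pass. Of 4 members tested, 1 was called lower and 0 higher, where 3.43% of 2679 genes were called lower and 6.68% higher. *Hmgb2* was at 602, 452 and 414 CPM in the P3 libraries and at 148, 139 and 93.7 CPM in the 3m libraries, with a log2 fold change of -1.77 (SE 0.29, adjusted p = 9.69e-04, edgeR) and no overlap. The log2 fold changes of *Hmgn2* (-0.94, adjusted p = 0.105), *Hmgb1* (-0.71, adjusted p = 0.0804) and *Hmgn1* (-0.43, adjusted p = 0.410) did not pass in edgeR, although the libraries of all 4 genes were lower at 3m without overlap, as were those of 19.6% of the genes tested. *Hmgb3* had 27 UMIs at P3 and 0 at 3m, at least 2.55-fold lower against a floor of 3 UMIs over the group. *Hmga1* had 21 UMIs at P3 (14.2, 30.4 and 24.2 CPM) and 1 at 3m, a ratio of 5.96 with a 95% counting interval from 0.958 to 246. Markers of cycling cells summed to 228 to 406 CPM in P3 and to 0 CPM in 3m microglia, and those of oligodendrocytes to 0 to 34.5 CPM and 150 to 2360 CPM. Their part in these values was not tested.

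Whether the age difference itself differed between astroglia and microglia was tested as an interaction. Of 8 members tested, 1 was called, *Hmgb2*, where 7.01% of 9285 genes were called in either direction and 1.86% lower. Its fall with age was larger in astroglia by 1.54 on the log2 scale (interaction -1.54, SE 0.37, adjusted p = 0.00339, edgeR), while the median of all genes was 0.36. With astroglia restricted to cells without *Mki67*, *Top2a* or *Cdk1* the interaction was 0.38 (adjusted p = 0.658, edgeR), and without 3m replicate 2 it was -1.38 (adjusted p = 0.0793, edgeR). The call was thus lost in both cases.

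Across the clusters named by the authors the genes fell into patterns, which are given as a description because the clustering used these genes too. *Hmgb1*, *Hmgb2*, *Hmgb3*, *Hmgn1*, *Hmgn2* and *Hmgn5* were highest in GPC_9, followed for the first 5 by GPC_8. Cycling markers summed to 1532 CPM in GPC_9 and 1567 CPM in GPC_8, the highest of the 24 clusters. In GPC_9, *Hmgb2* reached 3157 ± 426 CPM and in GPC_8 2415 ± 360 CPM, and the next cluster, END_13, had 1061 ± 35 CPM in 2 libraries (SD). The lowest *Hmgb2* level was 14.1 ± 10.8 CPM in LOW_20 at P3, and among the adult clusters 16.5 ± 1.3 CPM in ODC_2 and 20.1 ± 1.5 CPM in ODC_10, the oligodendrocyte clusters (2 libraries each), which do not differ beyond the spread of LOW_20.

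Adult oligodendrocytes, with ODC_2 and ODC_10 summed, had their own combination of HMG genes. *Hmgb1* was at 929, 992 and 929 CPM in replicates 1, 2 and 3, against 340 to 450 CPM in astroglia of the same libraries. *Hmgn2* was likewise higher in oligodendrocytes (158, 240.2 and 236 CPM) than in adult astroglia (57.0 to 96.0 CPM). In contrast *Hmgn1* was at 78.0 ± 12.7 CPM and *Hmgn3* at 76.1 ± 7.6 CPM, below the adult astroglial means of 211 ± 54 and 230 ± 92 CPM (SD, n = 3), and *Hmgb2* at 17.2 ± 2.2 CPM. None of these differences between cell types was tested. Since oligodendrocyte markers were present in 3m astroglia, the age comparison was repeated without the 77 3m and 4 P3 cells in which markers of other types exceeded 1% of UMIs, and *Hmgb1* was at -1.52 and *Hmgn2* at -1.96 on the log2 scale, against -1.51 and -1.94. Cells below that cut keep any oligodendrocyte RNA they hold, and its part in these values was not tested.

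*Hmga1* had its highest level in P3 microglia (22.9 ± 8.1 CPM, n = 3), followed by P3 oligodendrocyte precursors in OPC_18 (11.6 ± 3.2 CPM in 2 libraries). The next means were those of AST_P3_4 (1.57 and 20.2 CPM in 2 libraries) and adult AST_3m_14 (4.81 and 13.2 CPM in 2 libraries), and the ranges of both overlap that of OPC_18. *Hmga2* was highest in NEU_22 (8.29 CPM in the 1 library with enough cells), a cluster with 5065 CPM of neuronal markers, and in OPC_18 (4.66 ± 6.59 CPM in 2 libraries). Both values rest on a few UMIs and the SD exceeds the mean for OPC_18. *Hmgn3* was highest in AST_P3_11 (447 ± 52 CPM) and AST_P3_1 (351 ± 14 CPM) and lowest in microglia (28.6 ± 14.3 CPM at P3 and 19.8 CPM in 2 libraries at 3m), so the progenitor clusters did not lead for this gene. END_7 also had a low level of *Hmgn3*, 62.0 ± 3.7 CPM.

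**Figure D3:**
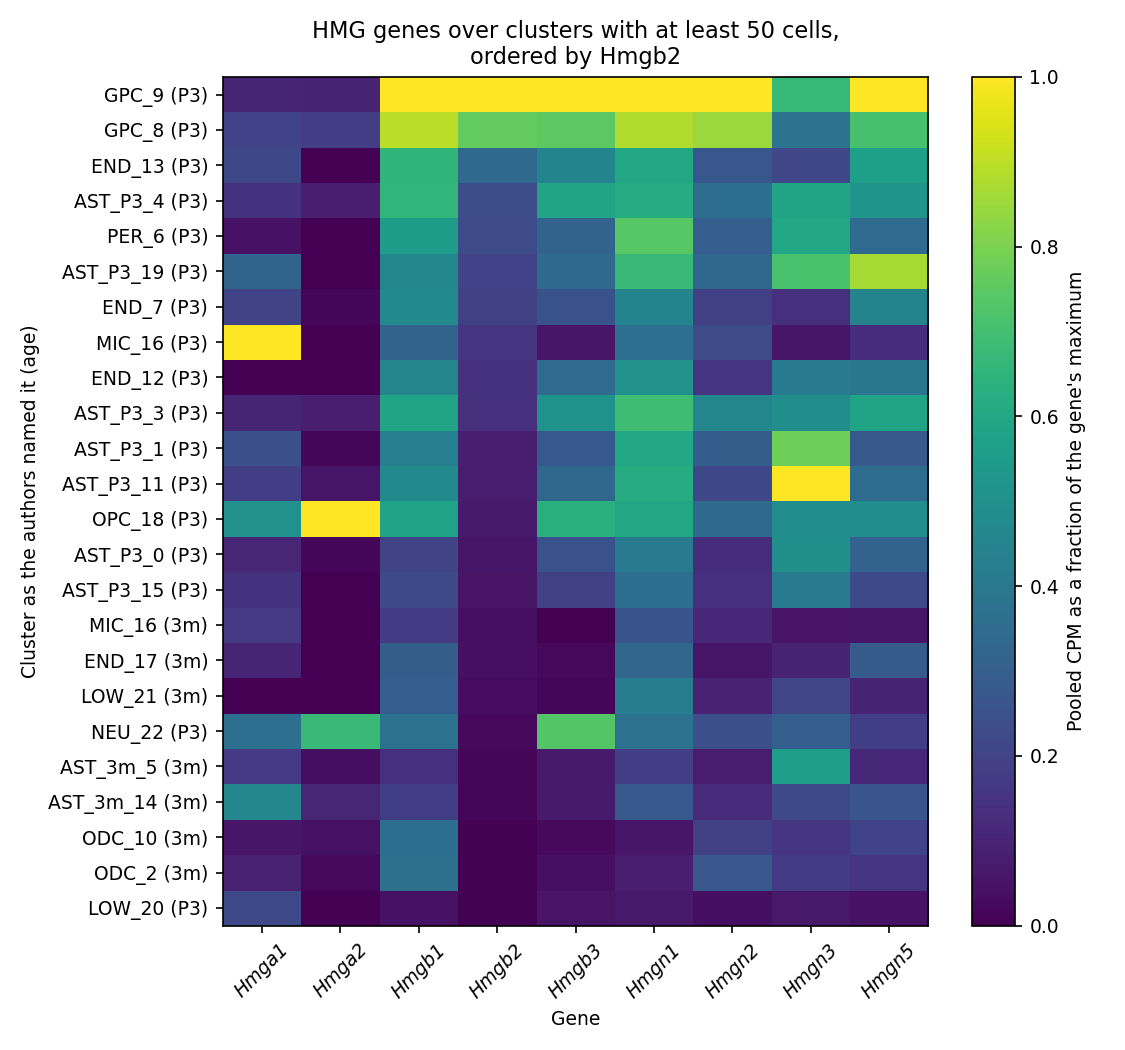
Pooled level of each HMG gene in 24 groups of cells, a cluster at 1 age each, with at least 50 cells, drawn as a fraction of the highest level of that gene, with rows ordered by *Hmgb2*. The names are those the authors gave. GPC_9 and GPC_8 hold the highest levels of *Hmgb1*, *Hmgb2*, *Hmgb3*, *Hmgn1* and *Hmgn2*, P3 microglia (MIC_16) that of *Hmga1*, and AST_P3_11 that of *Hmgn3*.

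The genes most like each member over the 24 clusters were found by Pearson correlation of log2(CPM + 10) among 3162 genes, all from the same libraries. For *Hmgb2* they were *Ran* (r = 0.94), *Ddx39* (0.94) and *Smc4* (0.94), of nuclear transport, RNA helicase and condensin function. For *Hmgb1* they were *Pa2g4* (0.95), *Hdgf* (0.95) and *Ncl* (0.94), and for *Hmgb3* the linker histone *H1fx* (0.95), *Sox11* (0.92) and *Nudt21* (0.92). *Hmgn1* was nearest to the histone variant gene *H2afv* (0.92), *Sae1* (0.92) and *Hnrnpa0* (0.89). *Hmgn2* was nearest to *Dnajc9*, *Tcp1* and *Pbdc1* (0.90, 0.89 and 0.87), and *Hmgn5* to *Eif1ax*, *Rbm17* and *Pbdc1* (0.89, 0.88 and 0.86). *Hmgn3* had *Casc4* (0.88), *Tusc3* (0.88) and *Cnn3* (0.86). For *Hmga1* the nearest were the microglial genes *Ctss*, *C1qa* and *C1qb* (0.65, 0.65 and 0.64), and for *Hmga2* *Crmp1*, *Nsg1* and *Dynll2* (0.79, 0.79 and 0.76). With 442 UMIs of *Hmga1* and 52 of *Hmga2* over all annotated cells, the values of these 2 genes rest on few counts. Among the members themselves, *Hmgb2* and *Hmgn1* (r = 0.86) and *Hmgb1* and *Hmgn2* (0.86) were closest, and *Hmgb2* and *Hmgn3* stood at 0.39. These values describe 24 clusters that share libraries and cell cycle content.

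Among the astroglial sub-clusters, numbered 0 to 16 by the authors, 6 and 8 had the highest *Hmgb2* levels (2283 ± 231 and 3032 ± 463 CPM, SD over 3 P3 libraries). Sub-clusters 0 and 1, the largest at P3, had 161 ± 21 and 149.8 ± 58.2 CPM, and sub-cluster 2 was between with 425 ± 78 CPM. The adult sub-clusters 7, 13, 14 and 16 had 42.6 to 69.4 CPM, below all of these. *Hmgn3* followed another order, from 173 ± 14 CPM in sub-cluster 6 to 479.6 ± 21.5 CPM in sub-cluster 10 at P3. At 3m it was at 346 CPM in sub-cluster 14, in the 1 library with enough cells, at 214 ± 5.3 CPM in sub-cluster 7 and at 87.3 ± 7.6 CPM in sub-cluster 13 (SD, 2 libraries each). In all 3m astroglia *Hmgn3* ranged from 163 to 334 CPM between libraries. The value of sub-cluster 14 and that of its library therefore cannot be told apart. Sub-clusters 10, 13 and 16 are among those that the study proposes may come from adjacent brain regions. Of the 2 adult astrocyte clusters, AST_3m_14 had 4641 CPM and AST_3m_5 had 289 CPM of oligodendrocyte markers, and the part of such RNA in the adult sub-clusters was not tested.

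The deposited pseudotime orders 5879 cells from dividing P3 cells to adult astrocytes, in bins 2 to 19. *Hmgb2* was at 2110 ± 290 CPM in bin 3, at 3544 ± 499 CPM in bin 7, its highest bin, and then at 864 ± 170.4 CPM in bin 11, 162 ± 30 CPM in bin 14 and 48.1 ± 16.1 CPM in adult bin 17 (SD over 3 libraries). *Hmgb1* was between 2181 and 2757 CPM from bin 3 to bin 11 and was at 493 ± 54 CPM in bin 14, before any adult bin. *Hmgn3* had its lowest value in bin 6 (165 ± 40 CPM) and its highest P3 value in bin 9 (319 ± 28 CPM), and then stayed between 224 and 233 CPM in bins 11 to 14. The adult bin 17 had 298 ± 125 CPM. The bins are made from all genes and from clusters, so the order is a description and carries no test.

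**Figure D4:**
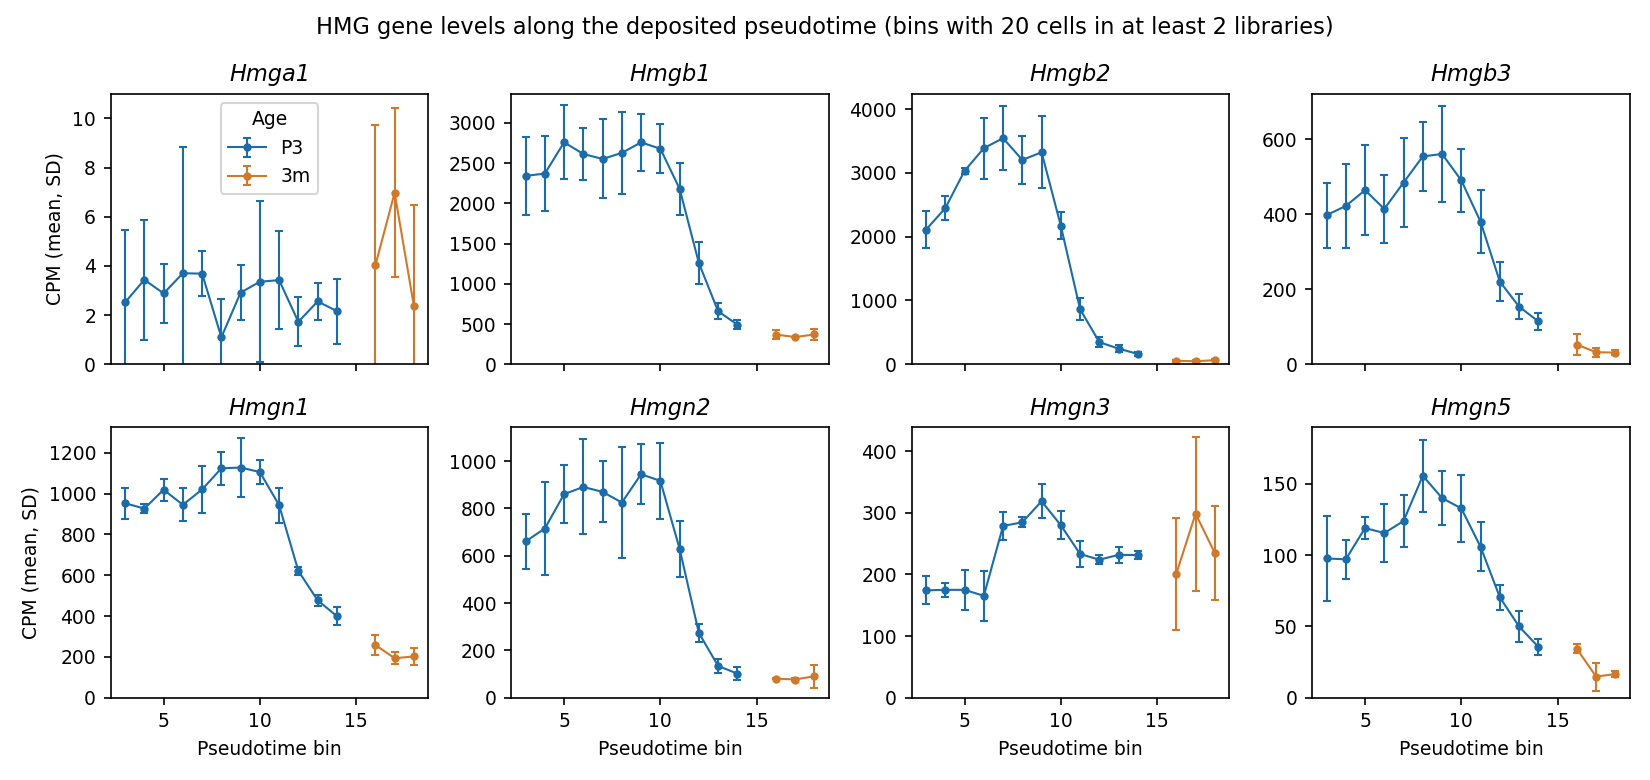
Mean level of 8 HMG genes in the bins of the deposited pseudotime, with SD over libraries, at P3 and at 3m, for bins with 20 cells in at least 2 libraries of that age. Each panel has its own axis from 0, where lower ends of error bars are cut off. *Hmgb2* peaks at 3544 CPM in bin 7 and is at 48.1 CPM in bin 17, while *Hmgn3* lies between 165 and 319 CPM throughout.

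Partners and neighbours of HMG proteins in chromatin were counted as well, by lists that were chosen with earlier results of these data known. Of 7 linker histone genes, which code for the proteins that HMGNs displace, 6 were called lower and 1 higher in adult astroglia, where 16.3% of all genes were called lower and 15.8% higher (median log2 fold change -3.37, and -0.04 over all genes). The largest fall was in *Hist1h1b* (413 ± 123 CPM at P3 and 0.86 ± 1.06 CPM, or 4 UMIs, at 3m, log2 fold change -8.66, adjusted p = 2.30e-08, edgeR), a histone gene of S phase cells, and *H1fx* fell by 3.37 (adjusted p = 6.55e-07, edgeR). In non-cycling cells *Hist1h1b* was at only 23.7 ± 12.1 CPM at P3, with a log2 fold change of -4.49 (adjusted p = 1.49e-04, edgeR). *Hist1h1c*, the only one called higher, also rose in non-cycling cells, from 15.8 ± 6.4 to 86.1 ± 39.2 CPM (log2 fold change 2.64, adjusted p = 6.90e-06, edgeR). All 7 were called higher in cycling astroglia and in cycling PER_6 cells, and 6 of 7 in cycling END_7 cells, where 8.94, 6.47 and 3.93% of all genes were called higher.

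Of 16 other HMG-box chromatin genes tested, 5 were called lower and 0 higher with age, against 16.3% and 15.8% of all genes. They included *Ssrp1*, a subunit of the FACT histone chaperone (96.9 ± 6.6 to 23.4 ± 2.2 CPM, log2 fold change -1.85, adjusted p = 2.23e-06, edgeR), and *Tox3* (58.0 ± 4.9 to 5.98 ± 2.40 CPM, log2 fold change -3.03, adjusted p = 6.11e-07, edgeR), a transcriptional regulator. Among non-cycling cells only 2 of these 16 genes, *Tox3* and *Ssrp1*, were called lower and 0 higher, near the 12.2% of all genes called lower there. Of 26 further chromatin architecture genes tested, 16 were called lower and 0 higher (median -1.29), with *H2afz*, a histone variant (1547 ± 199 to 184 ± 15 CPM, log2 fold change -2.88), *Nap1l1*, a histone chaperone (-2.40), *H3f3b*, which codes for histone H3.3 (-1.92), and *Npm1*, a nucleolar chaperone (-1.73), at an adjusted p of at most 2.62e-05 (edgeR). In non-cycling cells 10 of 26 were called lower, against 12.2% of all genes, and in cycling cells 13 of 26 were called higher, against 8.94%.

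Of the 8 genes linked to *Hmga2* through the let-7 microRNA or RNA binding, 4 were tested in the age comparison and 2 called lower, against 16.3% of all genes. *Igf2bp2*, a transcriptional target of HMGA2, had 361 UMIs at P3 and 0 at 3m, at least 6.94-fold lower against a floor of 3 UMIs over the group. *Igf2bp3* fell from a P3 mean of 22.02 ± 1.10 to 9.33 ± 1.97 CPM (log2 fold change -1.04, adjusted p = 0.00203, edgeR). Of 7 genes for cell-surface receptors of extracellular HMGB1, 4 were tested, 3 called lower and 1 higher, against 16.3% and 15.8% of all genes. *Cd24a*, which binds HMGB1 as a glycoprotein on immature neural cells, fell from 35.8 ± 7.4 CPM to 1 UMI in 3m astroglia, a ratio of 162 with a 95% counting interval from 29.1 to 6403 (adjusted p = 6.52e-07, edgeR). *Ager*, the receptor RAGE, went from 0.99 ± 0.06 to 2.85 ± 0.35 CPM (log2 fold change 1.74, adjusted p = 0.00713, edgeR), a low level at both ages. Reads of the histone genes could be shared among near-identical family members, so single values within that family are uncertain.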

How the data were processed

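UMI counts were deposited by the authors for 6 libraries and 32285 genes, made per the labels with Cell Ranger on mm10 and merged without normalization. A second table deposited by the authors gave cluster names, astroglial sub-cluster numbers and a pseudotime score and its bin, which have no unit, for 14373 cells, those that had more than 500 genes and a mitochondrial share below 10%. Seurat 3.1.1 is named in the submitters' processing notes, and the Slingshot pseudotime in the study's methods. Doublets and free RNA were not treated, and no column was left unmapped.

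UMIs were summed per library and cell class, since cells are not replicates, and tested with edgeR 4.0.16 (R 4.3.3; TMM scaling, filterByExpr, quasi-likelihood test, Benjamini-Hochberg adjustment over all genes tested). Calls required 2-fold or more and an adjusted p not above 0.05. CPM are UMIs per 1000000 UMIs of the same sum, unscaled otherwise, so CPM ratios and fitted folds can differ. UMI counts are not divided by transcript length and levels were not ranked between genes. Per the study, the libraries of an age come from independent preparations, each of several animals. No label gives a batch. Alternatives were DESeq2 1.42.0, no scaling, no filter, a replicate block, libraries left out and other cell selections. On simulated counts the astroglial age test recovered 89% of 100 4-fold and 48% of 100 2-fold changes (13703 genes), and the interaction test 36.6% and 3.66% of 82 each (8643 genes). Recovery was counted by adjusted p and direction, without the 2-fold limit of the calls. The simulation used the same fixed dispersion for all genes and changed only well counted genes. Intervals and floors cover counting error only.

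The members, gene lists and motifs were chosen with earlier results of these data known. Genes named were the 9 members, up to 4 called genes per list by size of change, and the 3 genes most correlated with each member among genes with a mean of at least 50 CPM over clusters. Transcript ends were compared with BLAST 2.17.0.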

Additional observations from a re-analysis of the deposited data

Results flagged for a closer look

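The age difference of *Hmgb2* differed between astroglia and microglia in the test of the interaction, -1.54 on the log2 scale (adjusted p = 0.00339, edgeR, over 9285 genes). The log2 fold change was -3.72 in astroglia and -1.77 in microglia. In the astroglia without *Mki67*, *Top2a* or *Cdk1* it was -1.71, against microglia in which cycling cells were kept. P3 microglia had 124 cells and 3m microglia 60, and the share of cycling cells in the result was not tested in microglia.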

How the results depend on the processing

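The 6 members called in the age comparison of all astroglia were called under all alternatives run, with *Hmgb2* between -3.95 and -3.52 on the log2 scale. Without scaling beyond library totals, the share of called genes that were higher at 3m was 38.6% instead of 49.3% in all astroglia, 39.9% instead of 54.0% in non-cycling astroglia, 52.0% instead of 66.1% in microglia and 41.8% instead of 73.4% for the interaction, and the median of all genes moved to -0.24, -0.24, -0.15 and -0.10. With libraries thinned to the smallest, 2697 genes were called in astroglia instead of 4344. Members called in non-cycling astroglia were 5 with DESeq2, 6 without scaling and 5 without a filter instead of 3, and 3 to 5 when leaving out 1 library, 5 of them without 3m replicate 2. With cells thinned to 2000 UMIs, 1281 genes were called by cycling state instead of 2261. In microglia, 513 genes and 3 members were called without a filter instead of 271 and 1, and 125 to 255 genes when leaving out 1 library, with 125 without 3m replicate 1 and 159 without 3m replicate 2. For the interaction, 2 members were called without scaling, where *Hmgn1* was at -1.08, and 0 with non-cycling astroglia. Leaving out 1 library gave 430 to 651 genes and 0 to 1 members, the lowest without 3m replicate 2.

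The values of *Hmgn3* changed sign around 0 and did not pass the threshold in any of these. In all astroglia it was at -0.13 without scaling, -0.064 without a filter and -0.13 with a stricter cell filter, and leaving out 1 library gave -0.34 (without 3m replicate 1) to 0.19. In non-cycling astroglia it was at -0.0024 with DESeq2, -0.18 without scaling, -0.094 without a filter, and leaving out 1 library gave -0.35 (without 3m replicate 1) to 0.19, with -0.03 without P3 replicate 1. Without P3 replicate 3 it was at -0.071 in PER_6 (up to 0.11 when leaving out others) and -0.048 in END_7 (up to 0.10). With non-cycling astroglia the interaction was 0.20 for *Hmgb1*, 0.38 for *Hmgb2*, 0.31 for *Hmgn2* and 0.38 for *Hmgn5*, and for *Hmgn5* leaving out 1 library gave -1.10 to 0.68, above 0 without P3 replicate 3 (0.11), 3m replicate 1 (0.42) and 3m replicate 3 (0.68). The share of cells with *Hmga1* was 1.08 percentage points lower at 3m without thinning (-1.08) and 0.42 higher with it. The cause of these reversals was not tested.

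With the replicate number as a block, 6 members and 4420 genes were called in astroglia, and *Hmgn3* was at -0.022 in non-cycling astroglia. The block changed no call of a member in the age comparisons. Deviations of same-numbered libraries correlated at 0.21, 0.10 and 0.04 in astroglia, not all above 0.1, and P3 replicate 3 correlated best with 3m replicate 2, so the numbers were not taken to pair the samples. Without the library block, 2040 genes were called by cycling state and 6 members. Depth limits the rare genes: *Hmga2* could not be tested with age, and 4 of 9 members could be tested in microglia.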
